A study of Mus musculus with 18 samples.

Results

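The MYC and MXD network was followed in RNA-seq of 6 mouse malignant peripheral nerve sheath tumor (MPNST) lines through its 10 member genes, *Myc*, *Mycn*, *Mycl*, *Max*, *Mxd1*, *Mxi1*, *Mxd3*, *Mxd4*, *Mnt* and *Mlx*. The members were taken by gene name from the 35275 genes of the deposited read count table, and all 10 were found. Every tumor was raised in a wild-type 129 Sv/Jae mouse by injecting the sciatic nerve with an adenovirus that carried CMV-driven Cas9 and guide RNAs. The guides targeted *Nf1* and p53 (*Trp53*) for the *Nf1*/*p53* dKO (double knockout), or *Nf1* and *Cdkn2a*, the locus of p16 and p19, for the *Nf1*/*Cdkn2a* dKO. Loss of *Nf1*, a brake on RAS signaling, is thus shared by both genotypes, and no unedited line was analysed here. Each genotype is represented by 3 lines, each from 1 tumor, and each line by 3 cultures, so that 18 untreated libraries were available. The lines had been passaged in serum-containing medium and are labelled as mesenchymal cells.

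MYC, MYCN and MYCL are basic helix-loop-helix leucine zipper proteins that bind DNA as dimers with MAX and recruit coactivators to promote ribosome production, metabolism and entry into the cell cycle. The MXD proteins (MXD1, MXI1, MXD3 and MXD4) and MNT compete for MAX and for the same DNA sites and recruit SIN3 and histone deacetylases, so that they oppose MYC. MLX is a second hub that pairs with MLXIP (MondoA), MLXIPL (ChREBP) and some of the MXD proteins and links the network to glucose sensing. In tumors with active RAS, MYC protein is known to be stabilized by phosphorylation, which RNA levels do not show.

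MYC-MAX and MXD-MAX dimers bind the E-box CACGTG, which reads the same on both strands. This motif was searched in RefSeq promoter windows (GRCm38.p6) that run from 250 bases before to 50 bases after a gene's start. Windows were given for 9 members, and for *Myc* none was given. The motif was found in 4 of these 9 members (44.4%), *Max*, *Mxd4*, *Mnt* and *Mlx*, against 8.09% of all 27025 genes with a window. By window, 4 of the members' 11 windows (36.4%) and 7.15% of 32851 windows held it. The sites are shown, 5′ to 3′ on the strand of the gene with the E-box in capitals, because proteins of the network bind this motif. No binding was measured in these cells, and a match is a description of the letters only.
Max, chr12:76962234-76962263, minus strand, with the motif spanning the start: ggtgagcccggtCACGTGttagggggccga
Mlx, chr11:101087238-101087267, plus strand, with the motif beginning 40 bases before the start: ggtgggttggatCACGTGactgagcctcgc
Mnt, chr11:74830789-74830818, plus strand, with the motif beginning 123 bases before the start: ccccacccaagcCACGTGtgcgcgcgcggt
Mxd4, chr5:34187912-34187941, minus strand, with the motif beginning 219 bases before the start: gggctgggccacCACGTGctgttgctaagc

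Total counts per library were 19560535 to 28312207. *Trp53* RNA was lower in the *Nf1*/*p53* dKO lines (73.4 ± 18.5 against 226 ± 35.6 CPM, SD, n = 3 lines each, adjusted p = 0.0361, edgeR), while *Nf1* (43.7 ± 22.9 against 22.4 ± 13.8 CPM, adjusted p = 0.328) and *Cdkn2a* RNA (228 ± 166 against 282 ± 111 CPM, adjusted p = 0.830) did not pass the test. *Cdkn2a* RNA was thus not lower in the lines labelled as its knockout (169, 392 and 285 CPM), and gene counts do not show small edits. Of the mesenchymal markers, all 10 had at least 487 counts in every line. The Schwann cell markers were mixed. *Sox10* had at most 7 counts in any line, while *Gap43* had 290 to 4139 and *Ngfr* 2 to 4548 counts per line. The tested Schwann cell markers summed to 5.98 to 83.3 CPM per line. The epithelial markers *Krt8* and *Krt18* ranged from 35 to 38177 and from 54 to 14056 counts per line. Muscle progenitor markers summed to 113 to 577 CPM per line in the *Nf1*/*p53* dKO against 7.60 to 28.0 CPM in the *Nf1*/*Cdkn2a* dKO. Of the 8 genes, 5 were tested, all without overlap (31.4% of all genes), and 2 were called lower (1.16% of all genes). However, *Myf5*, *Myod1*, *Des* and *Cdh15* read at most 0.529 CPM in any *Nf1*/*Cdkn2a* dKO line and passed the count filter through the *Nf1*/*p53* dKO lines. Their lack of overlap was thus largely set by the filter, and these counts carry no weight. *Pax7* had at most 2 counts in any line. The highest sum was in line 3 of the *Nf1*/*p53* dKO, which also had the highest sum of G2 and M phase markers (3676 CPM against 1790 to 2353 CPM in the other lines) and of S phase markers (2327 against 1472 to 1888 CPM). The part of muscle-like expression and of the cell cycle state in the results below was not tested. In bulk cultures, fewer cells of a type and less RNA per cell cannot be told apart.

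No member passed the test for a difference between genotypes, and few genes did in all. Nearly all members passed that for a difference between lines of the same genotype, as did 73.2% and 56.8% of all genes. The first test takes its error from lines and the second from cultures, so that their outcomes cannot be set against each other. Counts summed over the cultures of each line were compared with edgeR's quasi-likelihood test across 15207 genes, with Benjamini-Hochberg adjustment and a threshold of 0.05. None of the 10 members was called, against 274 genes (1.8%) in all, and none had an unadjusted p under 0.05, which 22.4% of genes had. DESeq2 on the 6 lines also called none. For no member did the 3 lines of one genotype lie apart from the 3 of the other, whereas 31.4% of all tested genes showed no overlap. The 95% intervals of the differences were wide. For *Myc*, the fold of *Nf1*/*Cdkn2a* over *Nf1*/*p53* dKO was 0.732 with an interval from 0.396 to 1.35. The narrowest intervals were those of *Mnt* (fold 0.961, 0.720 to 1.28) and *Mlx* (fold 1.18, 0.852 to 1.63), and the widest was that of *Mycn*.

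**Figure D1:**
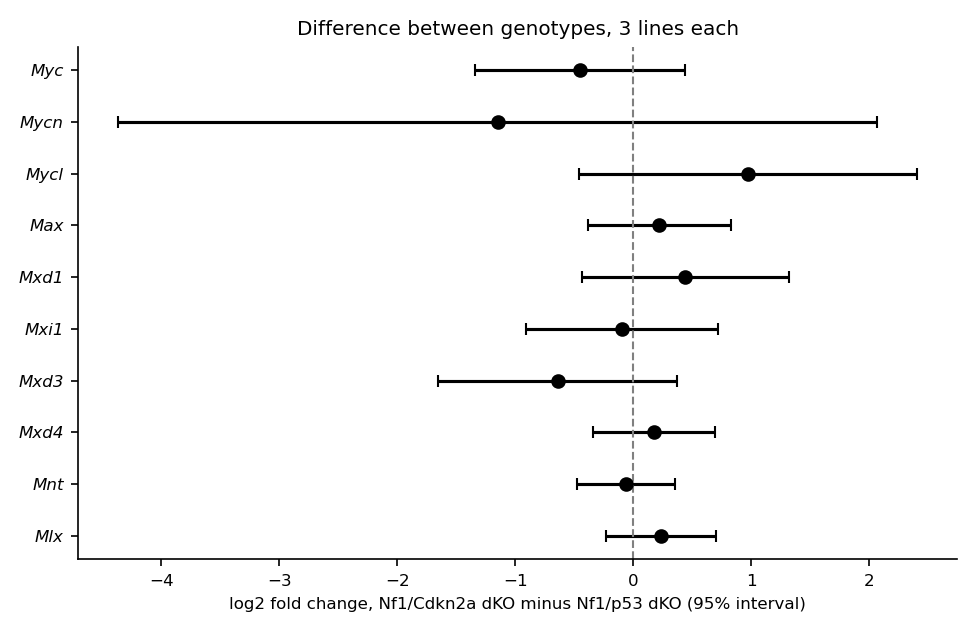
The fitted log2 fold change of each member (x axis, *Nf1*/*Cdkn2a* dKO minus *Nf1*/*p53* dKO, 3 lines each) is plotted as a point with its 95% interval as a bar. All 10 intervals cross 0, and *Mycn* has the widest, from -4.37 to 2.07.

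Among lines of 1 genotype, the cultures gave the error. An F test in edgeR across 14690 genes, with 1 mean per line and 18 cultures, called all 10 members among the *Nf1*/*p53* dKO lines, where 73.2% of genes were called. Among the *Nf1*/*Cdkn2a* dKO lines it called 9 of 10, all but *Max*, where 56.8% of genes were called. With such backgrounds the counts of members are no result about the network, and the sizes and directions below carry the description. These p-values measure spread between cultures of a line and not between tumors. The call of *Mlx* among the *Nf1*/*p53* dKO lines was lost whichever culture number was left out, leaving 9 members called, or 8 without culture 2, when *Mycn* was lost too.

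**Figure D2:**
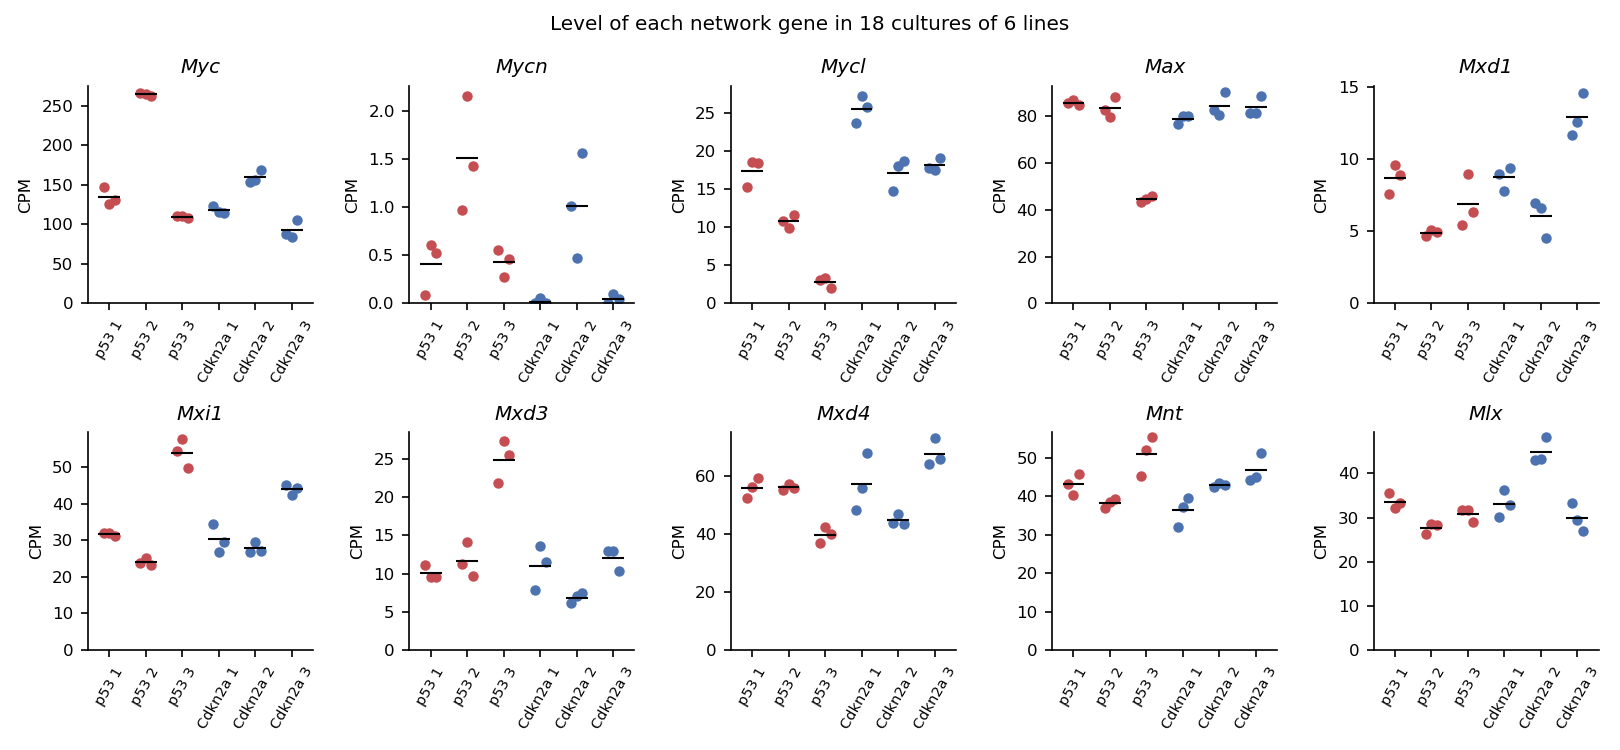
Each panel shows 1 member in CPM (y axis, from 0, scale differing between panels) in the 3 cultures of each line (points; red, *Nf1*/*p53* dKO; blue, *Nf1*/*Cdkn2a* dKO) with their mean (black bar). Line 2 of the *Nf1*/*p53* dKO stands highest for *Myc*, and line 3 stands lowest for *Max* and *Mycl* and highest for *Mxi1* and *Mxd3*.

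*Myc* (ENSMUSG00000022346, chr15:61985391-61990374, plus strand, GRCm38) was the main paralog in every line. In the *Nf1*/*p53* dKO, its cultures read 147, 126 and 130 CPM in line 1, 266, 265 and 263 CPM in line 2, and 111, 111 and 108 CPM in line 3. In the *Nf1*/*Cdkn2a* dKO, they read 123, 115 and 115 CPM in line 1, 154, 156 and 169 CPM in line 2, and 87.9, 84.4 and 106 CPM in line 3. The culture ranges of neighboring lines did not overlap anywhere in this order, and from highest to lowest the lines alternated between the genotypes, beginning with line 2 of the *Nf1*/*p53* dKO. The means over lines were 169 ± 83.0 CPM in the *Nf1*/*p53* dKO and 124 ± 33.6 CPM in the *Nf1*/*Cdkn2a* dKO (SD, n = 3), a log2 fold change of -0.45 (SE 0.37, adjusted p = 0.513, edgeR). Without line 2 of the *Nf1*/*p53* dKO the log2 fold change was 0.039. That line exceeded line 1 of its genotype by 0.98 on the log2 scale (SE 0.07, adjusted p = 1.9e-11), and line 3 minus line 2 was -1.26 (SE 0.07, adjusted p = 5.8e-14, edgeR). In the *Nf1*/*Cdkn2a* dKO, line 2 exceeded line 1 by 0.44 (SE 0.07, adjusted p = 3.1e-05). These contrasts of line pairs, and those below, were chosen after the values had been seen.

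*Mycl* (ENSMUSG00000028654, chr4:122995652-123002485), the paralog first found in lung cancer, was lowest in line 3 of the *Nf1*/*p53* dKO. Its line values were 17.5, 10.7 and 2.86 CPM in lines 1 to 3 of the *Nf1*/*p53* dKO and 25.6, 17.1 and 18.3 CPM in those of the *Nf1*/*Cdkn2a* dKO. The cultures of line 3 of the *Nf1*/*p53* dKO held 49 to 84 counts each and lay below all other cultures, and the 2 genotypes overlapped only through line 1 of the *Nf1*/*p53* dKO. The difference between genotypes (log2 fold change 0.97, SE 0.60) did not pass the test (adjusted p = 0.384, edgeR). Line 3 minus line 1 of the *Nf1*/*p53* dKO was -2.61 on the log2 scale (SE 0.15, adjusted p = 5.6e-14, edgeR). The SD of log2 CPM over lines was 1.34 in this genotype and 0.31 in the *Nf1*/*Cdkn2a* dKO, against 0.66 and 0.39 for *Myc* and medians over all genes of 0.36 and 0.26.

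*Mycn* (ENSMUSG00000037169, chr12:12936093-12941914, minus strand), the paralog amplified in neuroblastoma, was near the limit of detection. Lines 1 to 3 of the *Nf1*/*p53* dKO held 33, 107 and 31 counts, and those of the *Nf1*/*Cdkn2a* dKO 1, 69 and 3 counts, summed over 3 libraries each. The most counts were thus found in line 2 of each genotype, which were also the lines with the most *Myc*. In line 1 of the *Nf1*/*Cdkn2a* dKO, 2 of 3 cultures had no count, which allows up to 3 counts per library. The fitted log2 fold change between genotypes was -1.15 (SE 1.34, adjusted p = 0.647, edgeR) and ranged from -4.56 to -0.25 when 1 line was left out. Of the paralog sum per kb of exon, *Myc* made up 87.2 to 98.0%, *Mycl* 1.71 to 12.7% and *Mycn* at most 0.477%.

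*Max* (ENSMUSG00000059436, chr12:76937269-76962201, minus strand), the shared dimer partner, was even across 5 of the 6 lines. Cultures of line 3 of the *Nf1*/*p53* dKO read 43.2, 44.8 and 45.9 CPM, and the other 15 cultures read 76.7 to 90.6 CPM. On the log2 scale, line 3 minus line 1 of this genotype was -0.93 (SE 0.07, adjusted p = 2.9e-12) and line 3 minus line 2 was -0.90 (SE 0.07, adjusted p = 6.0e-12, edgeR). Line 2 differed from line 1 by -0.04 (SE 0.06, adjusted p = 0.662). Within the *Nf1*/*Cdkn2a* dKO, the line values were 79.3, 84.4 and 84.3 CPM, and *Max* was the only member that did not pass the F test (adjusted p = 0.366). Its SD of log2 CPM over these lines was 0.05, against a median over all genes of 0.26. Between genotypes the means were 71.0 ± 22.7 and 82.7 ± 2.94 CPM (SD, n = 3), a log2 fold change of 0.22 (SE 0.25, adjusted p = 0.642, edgeR), which became -0.020 without line 3 of the *Nf1*/*p53* dKO.

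The repressors did not move as 1 group. *Mxi1* (ENSMUSG00000025025, chr19:53310518-53375810), a MAX partner that opposes MYC, was highest in line 3 of each genotype, with 31.5, 24.0 and 54.2 CPM in the *Nf1*/*p53* dKO against 30.5, 27.9 and 44.2 CPM in the *Nf1*/*Cdkn2a* dKO. The cultures of line 3 did not overlap those of the other lines of their genotype. Line 3 was higher than line 2 by 1.17 (SE 0.09, adjusted p = 6.7e-12) in the *Nf1*/*p53* dKO and by 0.66 (SE 0.09, adjusted p = 4.4e-07, edgeR) in the *Nf1*/*Cdkn2a* dKO.

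*Mxd3* (ENSMUSG00000021485, chr13:55325168-55329823, minus strand), the family member known to be expressed in S phase of dividing cells, read 9.89, 11.7 and 25.0 CPM in lines 1 to 3 of the *Nf1*/*p53* dKO and 11.0, 6.82 and 12.1 CPM in those of the *Nf1*/*Cdkn2a* dKO. Line 3 of the *Nf1*/*p53* dKO was thus above every other line, and it was the line with the highest sums of S phase and of G2 and M phase markers. It exceeded line 1 by 1.32 (SE 0.16, adjusted p = 7.9e-08, edgeR) on the log2 scale. The difference between genotypes was -0.64 (SE 0.42, adjusted p = 0.417, edgeR), and it was -0.11 without this line.

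*Mxd1* (ENSMUSG00000001156, chr6:86647042-86669161, minus strand), known for rising as cells leave the cycle to differentiate, read 8.74, 4.89 and 6.99 CPM in the *Nf1*/*p53* dKO against 8.84, 6.17 and 13.0 CPM in the *Nf1*/*Cdkn2a* dKO. Line 3 of the *Nf1*/*Cdkn2a* dKO lay above all other lines without overlap of cultures, and it exceeded line 2 of its genotype by 1.09 (SE 0.17, adjusted p = 9.5e-06, edgeR). *Mxd4* (ENSMUSG00000037235, chr5:34173883-34187720, minus strand) read 55.7, 56.0 and 39.9 CPM in the *Nf1*/*p53* dKO against 58.1, 44.9 and 68.0 CPM in the *Nf1*/*Cdkn2a* dKO. Its order differed from that of *Mxi1*, since line 3 was the lowest line of the *Nf1*/*p53* dKO and the highest of the *Nf1*/*Cdkn2a* dKO. *Mnt* (ENSMUSG00000000282, chr11:74830920-74845725), the broadly expressed repressor of the network, was the most even member, with 42.6, 38.2 and 51.0 CPM in the *Nf1*/*p53* dKO against 36.5, 43.0 and 47.1 CPM in the *Nf1*/*Cdkn2a* dKO, a ratio of highest to lowest line of 1.40.

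*Mlx* (ENSMUSG00000017801, chr11:101087277-101092207) read 33.2, 27.6 and 30.9 CPM in the *Nf1*/*p53* dKO against 33.1, 44.7 and 30.1 CPM in the *Nf1*/*Cdkn2a* dKO. Line 2 of the *Nf1*/*Cdkn2a* dKO stood above the rest, by 0.44 over line 1 on the log2 scale (SE 0.09, adjusted p = 3.8e-04), and line 3 minus line 2 was -0.58 (SE 0.09, adjusted p = 5.7e-06, edgeR). *Psmc3ip* overlaps 19.3% of the exon bases of *Mlx* on the opposite strand, and since the counting is not stated to use strand, the *Mlx* level is uncertain. Smaller overlaps on the opposite strand concern *Mxd4* (6.06% of exon bases), *Mxd3* (4.43%) and *Mxi1* (2.84%).

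By line pair, line 3 against line 2 of the *Nf1*/*p53* dKO had the most called members, 9 of 10 (background 59.8%), with *Mxd1*, *Mxi1*, *Mxd3* and *Mnt* higher and the 3 paralogs, *Max* and *Mxd4* lower in line 3. Line 3 against line 1 had 7 called (background 59.3%) and line 2 against line 1 had 6 (background 45.8%). In the *Nf1*/*Cdkn2a* dKO, 7 members were called for line 3 against line 2 (background 47.5%), 6 for line 3 against line 1 (background 39.8%) and 8 for line 2 against line 1 (background 32.5%). In line 3 against line 2 of this genotype, *Mxd1*, *Mxi1*, *Mxd3* and *Mxd4* were higher and *Myc*, *Mycn* and *Mlx* lower in line 3. In both genotypes, then, line 3 had less *Myc* and *Mycn* and more *Mxd1*, *Mxi1* and *Mxd3* than line 2. The line numbers are names of separate tumors and do not link the genotypes.

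Levels were compared between genes per kb of exon. The sum of the MYC paralogs was 53.2, 100.3 and 41.5 CPM per kb in lines 1 to 3 of the *Nf1*/*p53* dKO and 49.8, 63.3 and 38.8 CPM per kb in those of the *Nf1*/*Cdkn2a* dKO. The sum of the 5 repressors was 25.8, 24.0 and 35.2 CPM per kb in the former and 25.1, 22.4 and 31.6 CPM per kb in the latter. The paralog sum was thus the larger in every line on this scale. The order depends on the scaling by exon length. In summed CPM, the repressors were the larger in line 3 of the *Nf1*/*p53* dKO (177 against 114 CPM). They were also the larger in lines 3 (184 against 112 CPM) and 1 (145 against 144 CPM) of the *Nf1*/*Cdkn2a* dKO. Per kb, the ratio of the repressor sum to the paralog sum was lowest in line 2 of each genotype (0.239 and 0.354). It was intermediate in line 1 (0.485 and 0.504) and highest in line 3 (0.849 and 0.814). The spans overlapped, and the lowest ratio was lower in the *Nf1*/*p53* dKO. The summed levels of paralogs and repressors exceeded that of *Max* 3.01-fold to 6.16-fold, with the highest value in line 3 of the *Nf1*/*p53* dKO, where *Max* was lowest, and the next highest in line 2 of that genotype, where *Myc* was highest. These are ratios of RNA per kb of all annotated exons and not of protein.

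**Figure D3:**
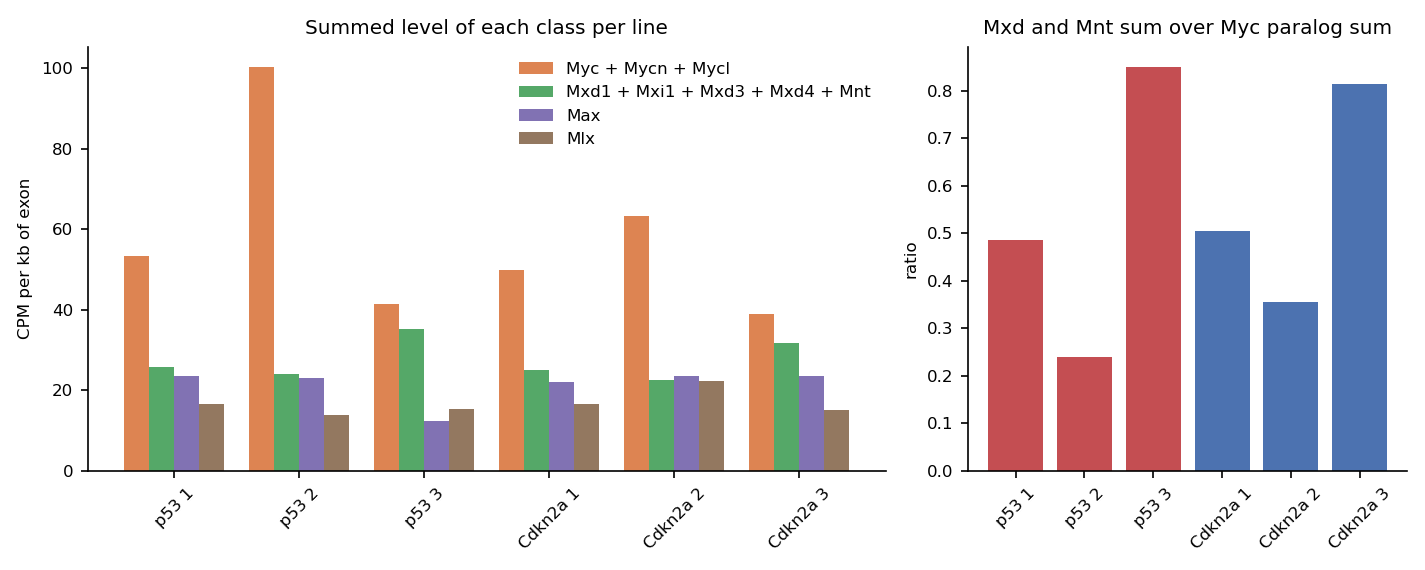
The left panel shows the summed level of each class of members per line in CPM per kb of exon (y axis, from 0), with 1 bar per class. The right panel shows the ratio of the *Mxd* and *Mnt* sum to the *Myc* paralog sum (red, *Nf1*/*p53* dKO; blue, *Nf1*/*Cdkn2a* dKO), which runs from 0.239 to 0.849 and is highest in line 3 of each genotype.

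The genes whose log2 CPM followed *Myc* most closely over the 18 cultures, among 14689 genes, were *Dlc1*, a RhoGAP (Pearson r = 0.973), *Ccl2*, a monocyte chemokine (r = 0.960), and *Rnf4*, a SUMO-targeted ubiquitin ligase (r = 0.955). The 18 points come from 6 lines, so that cultures of a line share their source. *Dlc1* read 60.2 CPM in line 2 of the *Nf1*/*p53* dKO and 15.9 to 29.4 CPM in the other lines. *Ccl2* read 253 CPM in that line and 52.7 to 120 CPM elsewhere. *Rnf4* spanned only 185 to 236 CPM over the lines.

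Along the chromosome, the 8 nearest tested genes on each side of *Myc* were followed. *Sqle*, *E430025E21Rik*, *Nsmce2*, *Gm20717*, *Adcy8* and *Gm20405* were highest in line 1 of the *Nf1*/*p53* dKO. However, *Gm20717* (0.0577 to 0.374 CPM) and *Gm20405* (0.0277 to 0.258 CPM) were near the limit of detection in all lines. Only 4 of the followed neighbors were, like *Myc*, highest in line 2 of the *Nf1*/*p53* dKO, namely *Pvt1*, *9930014A18Rik*, *Fam84b* and *Gsdmc4*. *Pvt1*, the long noncoding RNA gene next to *Myc*, starts 52.6 kb from the start of *Myc*. *Pvt1* read 132 CPM in this line and 17.5 to 25.7 CPM in the other 5 lines. It was not higher in line 2 of the *Nf1*/*Cdkn2a* dKO (17.5 CPM), the line with the second highest *Myc*. On the other side, *9930014A18Rik*, whose start lies at -1163 kb within the span of *Fam84b* so that reads may be shared, read 5.60 CPM in this line and 0.595 to 2.15 CPM in the others. The next tested gene beyond *Pvt1*, *Gsdmc4*, starts 1927 kb away. It read 0.354 CPM in this line and 0.0288 to 0.263 CPM in the others, all near the limit of detection. *Fam49b*, 2075 kb away, read 122 CPM in this line and 76.7 to 135 CPM in the others. *Fam84b*, whose start lies at -1132 kb, read 21.7 CPM in line 2 of the *Nf1*/*p53* dKO, 2.64 to 16.1 CPM in the others, and 2.64 CPM in line 3. Over the 8 nearest tested genes on each side of *Myc*, the median log2 level relative to the mean of the 6 lines was 0.12 in line 2 and 0.36 in line 1 of the *Nf1*/*p53* dKO, and -0.17 to 0.01 in the other lines. Around *Mycn*, the same medians ran from -0.47 in line 3 of the *Nf1*/*p53* dKO to 0.30 in line 2 of the *Nf1*/*Cdkn2a* dKO. Copy number was not measured. Among the neighbors of *Myc*, *Adcy8* differed most between lines, from 0.438 to 6.55 CPM. Among those of *Mycn*, *Fam84a* differed most between lines, from 1.62 to 28.5 CPM.

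**Figure D4:**
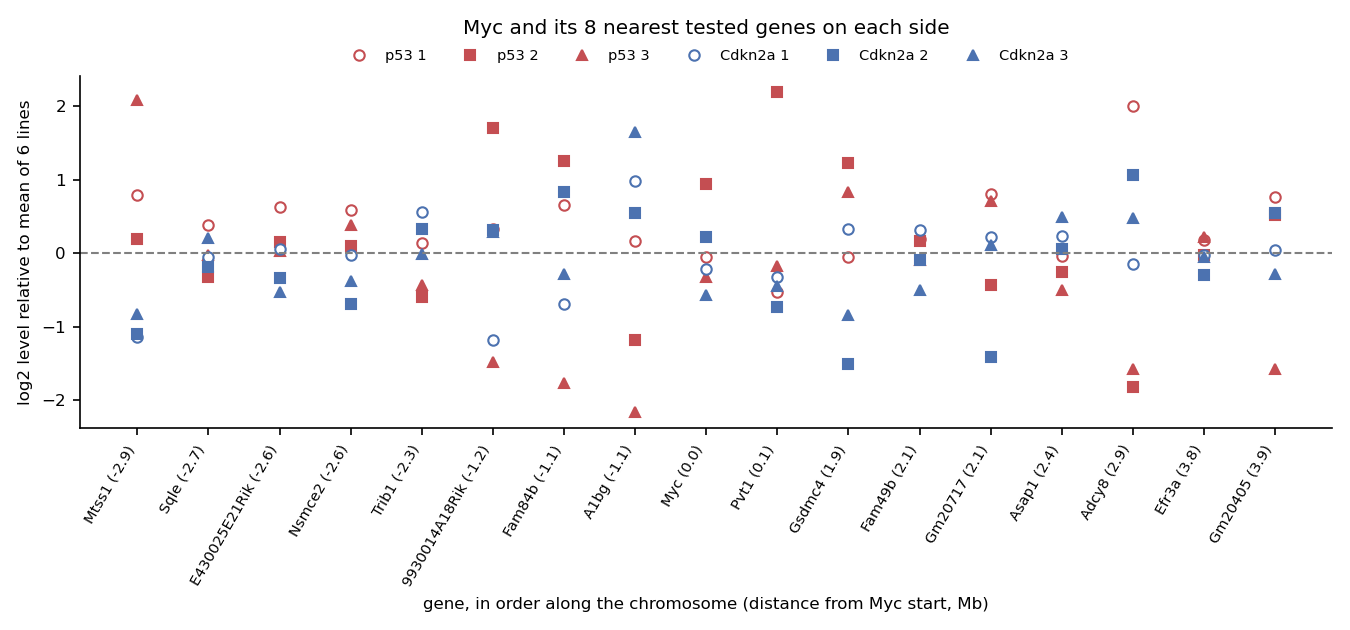
Levels of *Myc* and of the 8 nearest tested genes on each side are shown in order along the chromosome (x axis, with the distance between gene starts in Mb) as log2 values relative to the mean of the 6 lines (y axis). Symbols stand for lines (red, *Nf1*/*p53* dKO; blue, *Nf1*/*Cdkn2a* dKO), and line 2 of the *Nf1*/*p53* dKO (red squares) lies above the other lines for *Myc*, *Pvt1*, *9930014A18Rik*, *Fam84b* and *Gsdmc4*.

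The rest of the pathway was followed in 9 lists with 133 tested genes, of which 3 (2.26%) were called between genotypes, all lower in the *Nf1*/*Cdkn2a* dKO. Over all genes, 1.8% were called, and 1.16% were called lower. *Pim1*, a kinase known to phosphorylate and stabilize MYC, read 20.4, 20.3 and 22.0 CPM in lines 1 to 3 of the *Nf1*/*p53* dKO and 8.12, 7.89 and 7.59 CPM in those of the *Nf1*/*Cdkn2a* dKO, a log2 fold change of -1.41 (SE 0.18, adjusted p = 0.0287, edgeR). The groups lay far apart and the lines within each were close. *Actl6a*, a subunit of the BAF and TIP60 chromatin complexes, read 92.4, 97.4 and 94.6 CPM against 54.2, 55.7 and 52.5 CPM, a log2 fold change of -0.81 (SE 0.11, adjusted p = 0.0361, edgeR). *Ndrg2*, a gene repressed through MYC, read 28.9, 7.06 and 23.6 CPM against 1.62, 2.26 and 1.58 CPM, a log2 fold change of -3.45 (SE 0.56, adjusted p = 0.0465, edgeR). Direction and size held for these genes when any 1 line was left out, but *Pim1* and *Actl6a* then lost the call each time (adjusted p 0.0511 to 0.124 and 0.0568 to 0.143). *Ndrg2* lost it in 5 of 6 cases (adjusted p 0.0345 to 0.150), and kept it without line 2 of the *Nf1*/*p53* dKO.

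**Figure D5:**
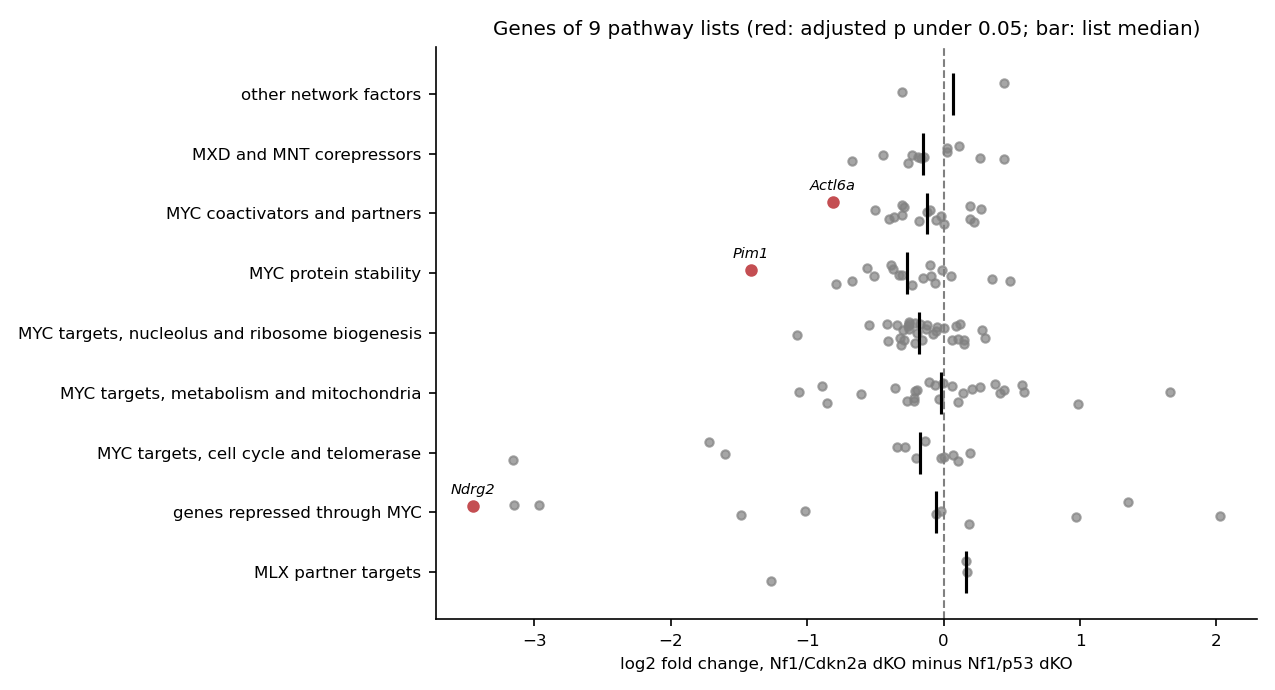
Each point is a tested gene of 1 of the 9 pathway lists, placed by its log2 fold change (x axis, *Nf1*/*Cdkn2a* dKO minus *Nf1*/*p53* dKO, 3 lines each), with the list median as a black bar. Red points are the 3 called genes, and all list medians lie between -0.27 and 0.17.

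Of the other network factors, *Mlxipl* was too low to test. *Mga*, a MAX partner with a T-box, read 89.2, 83.6 and 104 CPM in the *Nf1*/*p53* dKO against 73.8, 73.7 and 75.7 CPM in the *Nf1*/*Cdkn2a* dKO (log2 fold change -0.31, SE 0.13, adjusted p = 0.230, edgeR). *Mlxip* read 31.6, 46.3 and 30.3 CPM against 47.6, 49.3 and 50.3 CPM (log2 fold change 0.44, SE 0.20, adjusted p = 0.246, edgeR). Both separated the genotypes without overlap, as 31.4% of all genes did, in opposite directions, and neither passed the test. Of the 3 known targets of MLX complexes, *Klf10* had the lowest log2 fold change (-1.26, SE 0.31, adjusted p = 0.0866, edgeR). *Txnip*, the glucose-responsive arrestin, ranged from 9.09 to 51.5 CPM over the lines (log2 fold change 0.17, SE 0.64, adjusted p = 0.895, edgeR).

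None of the 12 corepressor genes was called, and 5 were above and 7 below 0 (median -0.15, against -0.023 over all genes). Without line 3 of the *Nf1*/*p53* dKO this median was -0.024. *Sap18* (0.44) and *Sap30* (-0.67), both subunits of the SIN3 complex, had the highest and lowest log2 fold changes. Among the 17 coactivators and partners, 12 were below 0 (median -0.12), 5 of them with an unadjusted p under 0.05 (22.4% of all genes), and *Actl6a* was the only call. *Trrap*, the scaffold of histone acetyltransferase complexes, read 142 to 147 CPM in the *Nf1*/*p53* dKO and 113 to 120 CPM in the *Nf1*/*Cdkn2a* dKO (log2 fold change -0.30, SE 0.11, adjusted p = 0.185, edgeR). The highest value was that of *Crebbp* (0.28). Of 18 genes for MYC protein stability, 15 were below 0 (median -0.27, and -0.16 without line 3 of the *Nf1*/*p53* dKO), and only *Pim1* was called. *Gsk3b*, whose kinase marks MYC for degradation, had the highest value (0.48, SE 0.24, adjusted p = 0.293, edgeR).

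Of the 32 nucleolar and ribosome biogenesis targets, none was called and 23 were below 0 (median -0.18). The median was -0.0085 without line 3 and -0.36 without line 2 of the *Nf1*/*Cdkn2a* dKO. *Tcof1*, a nucleolar factor for ribosomal RNA transcription, was closest to the threshold, with 181, 223 and 234 CPM in the *Nf1*/*p53* dKO against 102, 120 and 82.4 CPM in the *Nf1*/*Cdkn2a* dKO (log2 fold change -1.07, SE 0.19, adjusted p = 0.0502, edgeR). In edgeR it passed with upper-quartile scaling (adjusted p = 0.0474), with no filter (0.0412) and with raw totals (0.0407). It also passed with at least 10 counts in every line (adjusted p = 0.0487, edgeR) and with DESeq2 on the 6 lines (adjusted p = 8.2e-04). It did not pass in edgeR with scaling by DESeq2 size factors (adjusted p = 0.0511) or with the line number as a block (0.136). With 1 line left out, adjusted p was 0.0683 to 0.156 (edgeR). *Wdr74* had the highest log2 fold change of this list (0.31). By line, the summed level of the list was highest in line 2 of each genotype (8420 and 8294 CPM), between 7164 and 7479 CPM in 3 lines, and lowest in line 3 of the *Nf1*/*Cdkn2a* dKO (5718 CPM). By summed level, the other target lists had other orders. The summed metabolic targets were 10859 CPM in line 2 of the *Nf1*/*p53* dKO, the second lowest. They were 13140 CPM in line 3 of the *Nf1*/*Cdkn2a* dKO, the second highest. Such sums rest mostly on abundant genes, such as *Pkm* with 3060 to 5172 CPM. The median log2 level of the metabolic list, relative to the mean of the 6 lines, was 0.15 in line 2 of the *Nf1*/*p53* dKO. It was 0.27 in line 2 of the *Nf1*/*Cdkn2a* dKO, the highest, and -0.20 in line 3, the lowest. The nucleolar list had medians of 0.20, 0.15 and -0.42 in the same lines, with the last again lowest. The summed cell cycle targets were highest in line 2 of the *Nf1*/*p53* dKO (1681 CPM) and lowest in line 2 of the *Nf1*/*Cdkn2a* dKO (1277 CPM). Of these sums, *Ccnd2* alone made up 366 and 18.7 CPM. The median of this list was highest in line 3 of the *Nf1*/*p53* dKO (0.21, against 0.039 in line 2). It was lowest in line 3 of the *Nf1*/*Cdkn2a* dKO (-0.17). The E-box was found in the windows of 7 of 26 nucleolar targets (26.9%), 5 of 22 metabolic targets (22.7%) and 2 of 10 cell cycle targets (20%), against 8.09% of all genes. It was found in 3 of 15 genes for MYC protein stability (20%) and 2 of 16 coactivators (12.5%). Of genes repressed through MYC, 1 of 8 held it (12.5%), and of corepressors 1 of 9 (11.1%). Of other network factors 1 of 3 held it, and of MLX targets 1 of 2. The target lists were chosen as known MYC targets, and the 8.09% covers all genes with a window, expressed here or not. These shares were not tested and are a description only.

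Metabolic and mitochondrial targets lay on both sides of 0. None of 26 was called, 12 were above and 14 below 0 (median -0.02), and 6 higher and 4 lower genes had an unadjusted p under 0.05, which 22.4% of all genes had. The median had either sign when 1 line was left out, from -0.11 without line 2 to 0.12 without line 3 of the *Nf1*/*Cdkn2a* dKO. *Odc1*, the rate-limiting enzyme of polyamine synthesis, read 514, 383 and 274 CPM in the *Nf1*/*p53* dKO against 1092, 1596 and 1005 CPM in the *Nf1*/*Cdkn2a* dKO (log2 fold change 1.66, SE 0.29, adjusted p = 0.0508, edgeR). All 3 *Nf1*/*Cdkn2a* dKO lines lay above the other 3. *Odc1* passed the threshold with no filter on low counts (adjusted p = 0.0352, edgeR) and with DESeq2 on the 6 lines (adjusted p = 5.3e-05), and had adjusted p of 0.0609 to 0.143 with 1 line left out. *Shmt1*, an enzyme of folate metabolism, had the lowest value (-1.06, SE 0.32, adjusted p = 0.121, edgeR). The *Myc* levels of the same lines overlapped between genotypes, and a link of *Odc1* to *Myc* was not tested.

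None of the 12 cell cycle and telomerase targets was called (median -0.17, and -0.063 without line 2 of the *Nf1*/*Cdkn2a* dKO or -0.067 without line 3 of the *Nf1*/*p53* dKO). *E2f2*, an activator of S phase genes, had the lowest log2 fold change (-3.15, SE 1.04, adjusted p = 0.149, edgeR), with 75.6 CPM in line 3 of the *Nf1*/*p53* dKO and 2.71 to 9.51 CPM in the other lines, and it was -1.06 without that line. *Ccne1*, encoding cyclin E1, had the highest (0.19). Beside this list, 11 of 12 S phase markers and all 12 G2 and M phase markers were below 0, with none called. By line, the median log2 level of the G2 and M phase markers was -0.014, -0.11 and 0.63 in the *Nf1*/*p53* dKO. It was -0.049, -0.43 and -0.020 in the *Nf1*/*Cdkn2a* dKO, so that line 3 of the *Nf1*/*p53* dKO stood apart. For the S phase markers it was 0.12, 0.097 and 0.50 against -0.063, -0.16 and -0.29. Of the 11 genes repressed through MYC, 4 were above and 7 below 0 (median -0.06), and *Ndrg2* was the only call. This median was -0.69 without line 2 and -0.55 without line 3 of the *Nf1*/*Cdkn2a* dKO. *Thbs1*, the matrix glycoprotein thrombospondin 1, had the highest value (2.02, SE 0.67, adjusted p = 0.149, edgeR), with 1899, 1962 and 291 CPM in the *Nf1*/*p53* dKO against 4701, 4958 and 7222 CPM in the *Nf1*/*Cdkn2a* dKO. *Cdkn1a*, the p53 target that encodes the cell cycle inhibitor p21, stands on this list too and read 33.0, 41.3 and 108 CPM in the *Nf1*/*p53* dKO against 180, 158 and 128 CPM in the *Nf1*/*Cdkn2a* dKO (adjusted p = 0.155, edgeR).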

How the data were processed

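Sequencing of total RNA was outsourced, library preparation included. The values deposited by the authors are unnormalized counts, whole reads for each gene in each library. The submitters' processing notes name CASAVA, STAR 2.5, DESeq2 1.14.1 and the build GRCm38 (mm10), while the counting tool, its strand setting and the annotation are not given in the sources used here. GENCODE M21 gave positions and exon lengths. The paper states 2 biological replicates per condition in its statistics and 3 lines in triplicate elsewhere, and the labels give the latter.

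Counts were summed over the 3 cultures of each line, filtered (edgeR filterByExpr, minimum count 10, total 15), scaled with TMM (factors 0.941 to 1.06) and tested by quasi-likelihood F tests (edgeR 4.0.16, limma 3.58.1, DESeq2 1.42.0, R 4.3.3), with p-values adjusted over all genes. CPM values are counts over the TMM-scaled library total. Lines within a genotype were compared on the 18 cultures. For likeness, Pearson's r was taken on log2 CPM with a prior count of 2. E-boxes were searched in RefSeq windows. Total counts per library, 19560535 to 28312207 (median 23149777), set the precision, and the floor of 3 counts covers counting error only. The median 95% interval of a log2 fold change was 1.42 wide. Among simulated counts that had the spread measured over lines, 56 of 93 genes changed by 2 on the log2 scale and 75 of 93 changed by 3 were called, with 7 calls among 14707 unchanged genes (14893 genes in all). Changes as small as those fitted for the members (-1.15 for *Mycn* to 0.97 for *Mycl*) were not simulated for this test.

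The members, lists and tests were chosen with earlier results of these data known. The text names all members, the called, highest and lowest genes of each list, the 3 genes most like *Myc*, and, of the 8 nearest tested genes on each side of *Myc* and *Mycn*, the one that differed most between lines. *Mga*, *Mlxip*, *Trrap*, *Cdkn1a*, *Pkm*, *Ccnd2* and the named neighbors of *Myc* other than *Adcy8* were chosen after their values were seen. The same holds for the cell type markers *Gap43*, *Ngfr*, *Krt8* and *Krt18*. Alternatives were other scalings, filters, tools, blocks and single lines left out. Python 3.11.15, pandas 2.3.3 and matplotlib 3.10.9 made the figures.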

Additional observations from a re-analysis of the deposited data

How the results depend on the processing

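Between genotypes, 274 genes were called, and 17 alternatives gave other counts. With cultures as separate samples, which takes cultures of a line as independent, edgeR called 6096 genes, DESeq2 7171 and edgeR with the culture number as a replicate block 5681. Limma-voom with a random effect for line called 2173 and DESeq2 on the 6 lines 2055. Raw totals in place of TMM, chosen after seeing the data, called 423, shifted the median of all genes by -0.13 (log2) and put 20.3% of calls higher in the *Nf1*/*Cdkn2a* dKO, against 35.4%. With the line number as a replicate block none was called (2740 at an unadjusted p under 0.05), but same-numbered lines are separate tumors whose deviations correlated at -0.10, -0.13 and -0.08, so the numbers do not pair them. Culture numbers did not pair the cultures either (r -0.06 to 0.09). Leaving out 1 line gave 0 to 172 calls, 0 without line 1 (2668 at an unadjusted p under 0.05) and 2 without line 2 of the *Nf1*/*Cdkn2a* dKO, and 27 without line 2 of the *Nf1*/*p53* dKO.

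No member was called in any fit on the 6 lines or with 1 left out, or by limma-voom. On cultures as separate samples, edgeR and DESeq2 called *Mycl* and *Mxd3* (2 members), and edgeR with the culture block *Mycl*. In 6 of 169 values the direction reversed, all with 1 line left out and none past the threshold. These ranges were -0.68 to 0.039 for *Myc*, -0.020 to 0.37 for *Max*, -0.32 to 0.30 for *Mxi1* and -0.14 to 0.068 for *Mnt*. *Txnip* reversed in 4 alternatives, to -0.12 with limma-voom, to -0.00076 with the line block and within a range of -0.66 to 0.65 with 1 line left out. The cause was not tested. Of 153 list medians under the alternatives, 12 moved by more than the spread between lines. With raw totals, the corepressor median was -0.29, that of coactivators -0.26, of protein stability -0.40, of cell cycle targets -0.30 and of other network factors -0.065. Without line 2 of the *Nf1*/*p53* dKO the last was 0.16, and without line 3 of the *Nf1*/*Cdkn2a* dKO that of MLX targets was -0.66. DESeq2 on the 6 lines also called *Odc1*, *Tcof1*, *Shmt1*, *E2f2*, *Thbs1* and *Klf10*. Counts among lines stayed within 1.5 times under all 6 alternatives of each genotype, and the members called did not change under scaling, filter or culture block. Depth limits *Mycn* most.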
